A study of Mus musculus with 2 samples.

Results

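Described here are 8 genes of cholesterol metabolism, Hmgcs1, Idi1, Fdps, Sqle, Lss, Srebf2, Insig1 and Ch25h. With earlier results of these data known, they were chosen by name for their role in the pathway from the 12584 genes of the count matrix. All 8 had a row in it, and they were followed through the 16 cell populations that the authors named and through both libraries. The libraries held live CD45+ leukocytes, sorted from subcutaneous tumours of the YUMM3.3 melanoma line (Braf V600E, Cdkn2a-/-) in C57BL6 mice at day 12 by the series record (the study's methods name an earlier day) and profiled by droplet-based single-cell RNA sequencing. NTT stands for cells never given targeted therapy, and RTT for the derivative of that line with acquired resistance to the BRAF inhibitor dabrafenib, which was present throughout its culture. As there was 1 library from 1 tumour on each side, effects of the line, the mouse, the sort and the library cannot be told apart, and a spread between animals was not measured.

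Cells build cholesterol from acetyl-CoA through the mevalonate pathway. HMGCS1 makes HMG-CoA at its start, and IDI1 and FDPS build the isoprenoid chain that also feeds protein prenylation. SQLE oxidises squalene in a rate-limiting step, and LSS closes the rings to give the first sterol, lanosterol. SREBF2 encodes SREBP2, the transcription factor that switches these genes on when sterols run low, and INSIG1 is the membrane protein that holds the SREBP2 complex in the endoplasmic reticulum when sterols are plentiful. CH25H converts cholesterol to 25-hydroxycholesterol, an oxysterol that blocks SREBP2 processing and guides immune cells, and macrophages are known to induce the gene in response to interferon and Toll-like receptor ligands.

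The NTT library held 2975 cells and 19634099 unique molecular identifiers (UMIs, each a counted transcript), and the RTT library 4840 cells and 44712071 UMIs. Only 7 cell barcodes occurred in both. The populations differed in abundance, with TAM_C1q making up 0.571% of NTT and 41.3% of RTT cells and Monocyte_1 33.1% and 2.05%. Levels below are UMIs of a gene summed over the cells of a population, as counts scaled to 1e6 (CPM) of all UMIs of those cells, with exact Poisson 95% intervals. The intervals cover counting error only. A level was given for the 25 combinations of population and library with at least 20 cells, and a ratio for the 11 populations with that many in both.

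The labelled populations carried their defining markers, with exceptions that touch these genes. The cDC1 population carried Xcr1 at 161 CPM in the NTT and 416 CPM in the RTT library, and cDC2 carried Cd209a at 762 and 1166 CPM. DC3, the population with Ccr7 at 2730 and 2462 CPM, had the markers of activated dendritic cells. In the RTT library, Infl_Mono and Neutro held macrophage transcripts, with C1qa at 6375 CPM against 1367 in NTT Infl_Mono and 7699 CPM against 1258 in NTT Neutro. Of the macrophage list, all 6 genes were higher in the RTT library in both populations, and all 3 measured monocyte genes were lower. Monocyte_1 was mixed in both libraries, with C1qa at 1000 CPM or more in 585 of 984 NTT and 44 of 99 RTT cells.

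By GENCODE M21 on GRCm38, Hmgcs1 lies at chr13:119690379-119708260, Idi1 at chr13:8885501-8892451, Insig1 at chr5:28071363-28078662, Lss at chr10:76531588-76557138, Sqle at chr15:59315077-59331192 and Srebf2 at chr15:82147181-82205379, all on the plus strand. Fdps (chr3:89093588-89101959) and Ch25h (chr19:34473778-34475164) lie on the minus strand. RefSeq promoters on GRCm38.p6, from 250 bases before to 50 after the start of transcription, were at hand for 6 of the 8 genes. Shown, to set the letters of an SREBP2 target beside those of Ch25h, are the most upstream enzyme, both regulators and Ch25h, in lower case with matches to the searched motifs in capitals. The motifs, searched on both strands, were the sterol regulatory element TCACNCCAC and its first 8 letters TCACNCCA, which overlap, the CCAAT box (CCAAT, or ATTGG on the opposite strand), the E-box CACGTG, the cyclic AMP response element TGACGTCA and the interferon element core GAAANNGAA.
Hmgcs1, chr13:119690101-119690400, plus strand: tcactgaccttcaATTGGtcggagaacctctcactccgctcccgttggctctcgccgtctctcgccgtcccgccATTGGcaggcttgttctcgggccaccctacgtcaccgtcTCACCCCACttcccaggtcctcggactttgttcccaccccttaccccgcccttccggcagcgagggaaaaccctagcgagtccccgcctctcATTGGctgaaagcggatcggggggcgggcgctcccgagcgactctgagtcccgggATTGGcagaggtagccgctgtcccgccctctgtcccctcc
Srebf2, chr15:82147019-82147318, plus strand: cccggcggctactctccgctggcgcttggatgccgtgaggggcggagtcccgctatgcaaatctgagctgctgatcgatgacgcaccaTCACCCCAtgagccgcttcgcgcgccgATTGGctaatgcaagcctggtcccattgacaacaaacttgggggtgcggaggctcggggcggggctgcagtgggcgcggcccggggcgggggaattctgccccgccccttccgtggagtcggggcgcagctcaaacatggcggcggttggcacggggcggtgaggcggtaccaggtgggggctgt
Insig1, chr5:28071162-28071461, plus strand: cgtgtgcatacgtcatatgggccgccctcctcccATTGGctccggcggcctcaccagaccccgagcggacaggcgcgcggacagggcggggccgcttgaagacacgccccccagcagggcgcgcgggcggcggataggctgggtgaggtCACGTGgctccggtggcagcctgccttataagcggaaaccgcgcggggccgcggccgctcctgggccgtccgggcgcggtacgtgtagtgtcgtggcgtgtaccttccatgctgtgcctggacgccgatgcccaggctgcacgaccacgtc
Ch25h, chr19:34475099-34475398, minus strand: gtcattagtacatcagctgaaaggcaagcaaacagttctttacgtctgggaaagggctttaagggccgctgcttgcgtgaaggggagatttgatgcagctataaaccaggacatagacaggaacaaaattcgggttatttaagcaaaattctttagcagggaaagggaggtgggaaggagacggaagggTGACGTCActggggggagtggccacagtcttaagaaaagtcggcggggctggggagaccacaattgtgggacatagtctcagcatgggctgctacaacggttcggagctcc

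The full sterol element lay in the Hmgcs1 promoter 137 bases before the start, a match found in 1.24% of 32851 mouse promoters of the same length. Its shorter form also lay in the Srebf2 promoter, 162 bases before the start, and in 4.36% of all promoters. A CCAAT box was present in 5 of the 6 promoters, 4 times in Hmgcs1, against 37.4% of all promoters, and Ch25h was the one without. Ch25h instead held the cyclic AMP element 61 bases before its start (1.79% of promoters), and Insig1 an E-box 101 bases before (7.15%). The interferon core was in none of the 6 and in 8.56% of all promoters. A match in these letters is a description of the sequence and not a measured binding site.

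The 5 synthesis enzymes were highest in dendritic cells. Fdps, the prenyl-chain synthase, stood at 680 CPM (95% interval 619 to 747) in NTT cDC1, 375 CPM (319 to 439) in RTT cDC1 and 273 CPM (248 to 299) in NTT cDC2, 3 levels whose intervals did not overlap. The next was RTT Myofibrobl at 117 CPM (83.9 to 159), from which RTT cDC2, NK_cells, both DC3 values and RTT Monocyte_1 (111 to 101 CPM) did not differ beyond counting error. The lowest level was 13.2 CPM in NTT Neutro. Both cDC1 levels lay above that of every monocyte and macrophage population.

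The other enzymes were also highest in NTT cDC1, with wider intervals and differing orders below it. Hmgcs1 was at 315 CPM (273 to 361) in NTT and 228 CPM (184 to 278) in RTT cDC1, then at 162 CPM in NTT cDC2 and at 141 and 120 CPM in RTT and NTT DC3. Idi1, the isopentenyl diphosphate isomerase, was at 197 CPM (165 to 234) in NTT cDC1 and 175 CPM (147 to 207) in NTT DC3, values with overlapping intervals. Sqle ranged from 73.4 CPM (54.1 to 97.3) in NTT cDC1 to 0 UMIs in RTT Neutro. Lss, which had 86 NTT and 140 RTT UMIs in all, was highest in NTT cDC1 at 27.5 CPM (16.3 to 43.5) and at 10.8 CPM or less in every other combination. Summed over the 5 enzymes, NTT cDC1 reached 1294 CPM, RTT cDC1 782, NTT cDC2 613, RTT DC3 420, NTT DC3 417 and RTT cDC2 319 CPM, against 48.5 CPM in NTT Neutro.

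The same gradient held in single cells at equal depth. When every cell was thinned to 2000 UMIs, a UMI of Fdps was found in 65.4% (53.8 to 75.8, exact Clopper-Pearson interval) of 78 NTT cDC1 and 55.6% (41.4 to 69.1) of 54 RTT cDC1, and in 7.55% of 941 NTT Monocyte_1 and 7.72% of 1995 RTT TAM_C1q cells. Without thinning the shares were 85.9%, 71.4%, 16.8% and 28.8%. The high cDC1 level was therefore spread over most cells of that population, although the NTT cell with the most Fdps UMIs alone held 46 of 445.

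**Figure D1:**
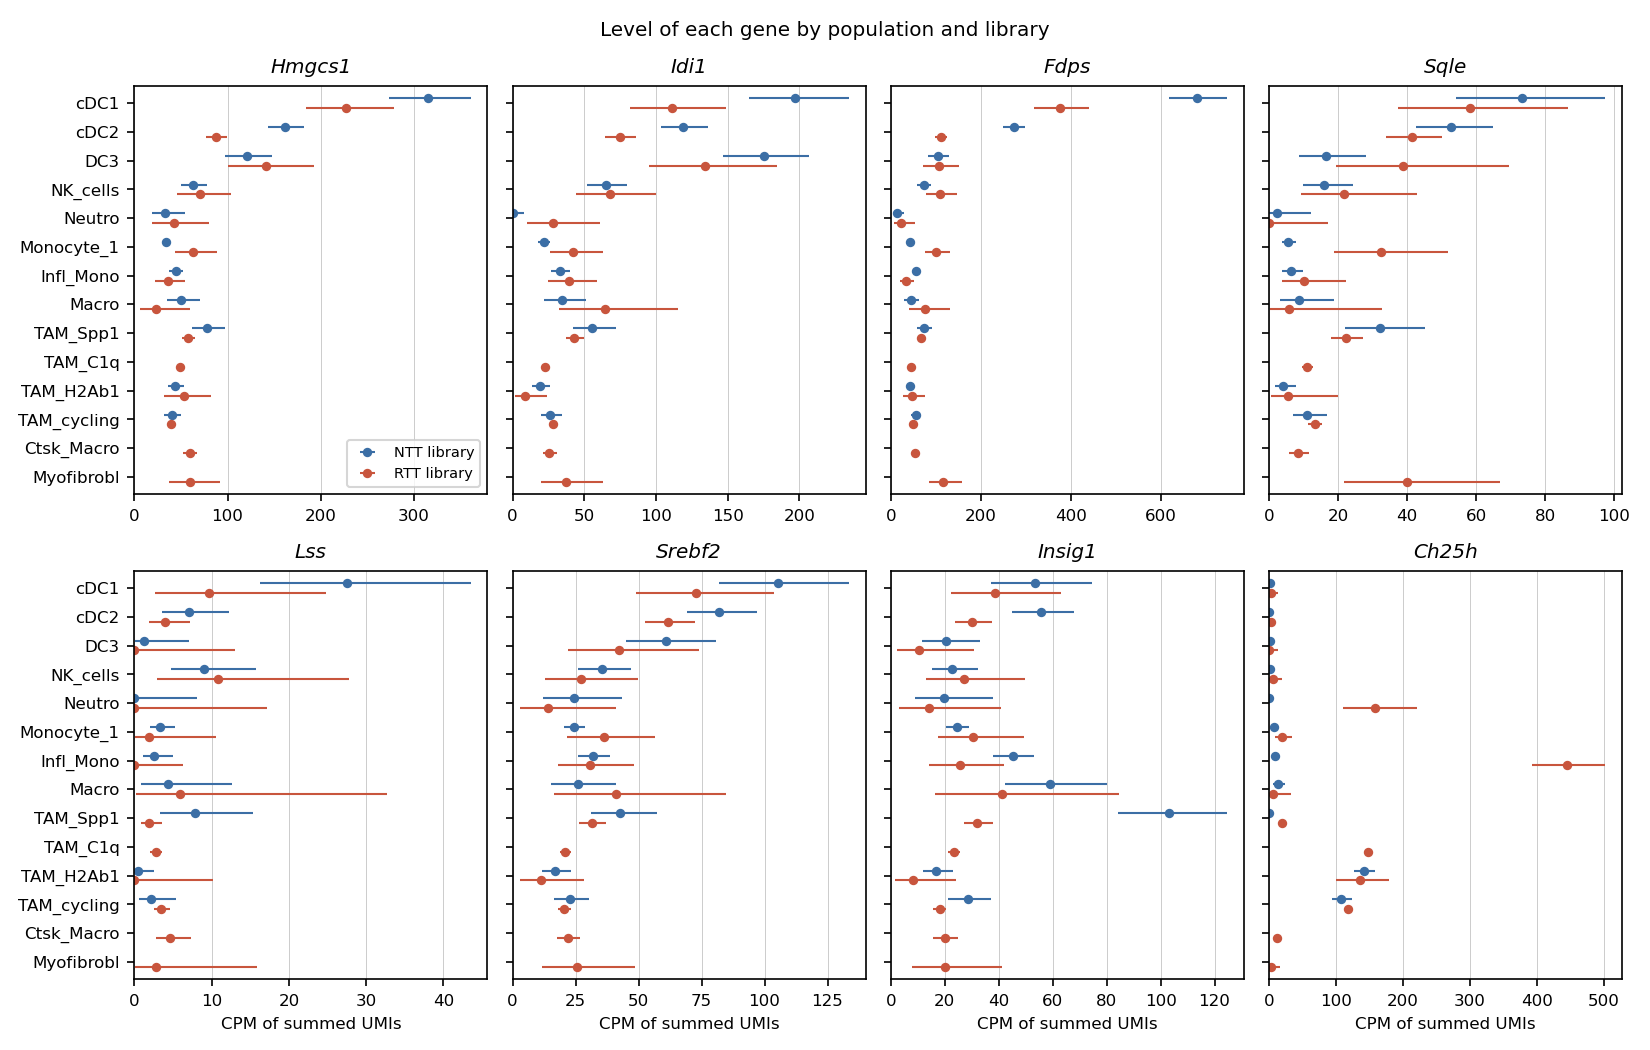
Level of each of the 8 genes in CPM of summed UMIs (horizontal axes, linear, 1 scale per gene) for the populations with at least 20 cells in a library, NTT in blue and RTT in red, with exact Poisson 95% intervals. The 5 enzymes and Srebf2 are highest in NTT cDC1, Insig1 in NTT TAM_Spp1 at 103 CPM, and Ch25h in RTT Infl_Mono at 445 CPM.

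Of the regulators, Srebf2 followed the enzymes and Insig1 did not. Srebf2 was at 106 CPM (82.1 to 134) in NTT cDC1, 82.1 in NTT cDC2, 72.6 in RTT cDC1 and 61.8 in RTT cDC2, each overlapping the next, and the lowest level was 11.1 CPM in RTT TAM_H2Ab1. Insig1 was instead highest in the NTT TAM_Spp1 macrophages, at 103 CPM (84.4 to 125), above the next level of 59.1 CPM (42.4 to 80.1) in NTT Macro. In both cDC1 and cDC2 of the NTT library it stood near 54 to 56 CPM (53.5 and 55.7), and in RTT TAM_H2Ab1 at 8.33 CPM.

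Ch25h had the opposite distribution. It was at 445 CPM (393 to 502) in RTT Infl_Mono, then at 159 CPM (110 to 222) in RTT Neutro, 148 CPM (142 to 154) in RTT TAM_C1q, 142 and 136 CPM in NTT and RTT TAM_H2Ab1, and 118 and 108 CPM in RTT and NTT TAM_cycling, a run of macrophage levels in which neighbouring intervals overlapped. Below a gap came RTT TAM_Spp1 at 19.7 CPM (15.8 to 24.4), RTT Monocyte_1 at 19.0, NTT Macro at 13.0 and RTT Ctsk_Macro at 12.5 CPM. In cDC1, cDC2, DC3 and NK_cells of either library it had 0 to 8 UMIs. TAM_C1q is not given a level in the NTT library, where it had 17 cells and 42 of its 43 Ch25h UMIs came from 1 cell.

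Across the 25 combinations, the enzymes varied together and apart from Ch25h. On log2(CPM + 10), Fdps correlated with Sqle (Pearson r = 0.89), Hmgcs1 (0.88), Srebf2 (0.84) and Idi1 (0.82), whereas Insig1 correlated with the 5 enzymes at 0.27 to 0.59 and Ch25h with all other genes at −0.41 to −0.63. These are descriptions over 25 points that share 2 libraries and related cell types, with no test. Among all 8220 genes with at least 500 UMIs, those most like Fdps were Cyp51 (0.90), Sqle, Hmgcs1, Msmo1 (0.87) and Cldnd1 (0.86), of which Cyp51 and Msmo1 encode the next steps of sterol demethylation. Sqle was closest to Msmo1 (0.90) and Cyp51 (0.89), with Fdft1, squalene synthase, also near (0.86). The gene most like Hmgcs1 was Btla (0.91), with Flt3, the dendritic cell growth factor receptor, at 0.85. Lss was closest to Unc119b (0.86), and Srebf2 to Bri3bp (0.87).

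The other genes had other neighbours. Insig1 was closest to Uck2 (0.84), followed by Acly (0.82), which supplies acetyl-CoA. Ch25h was closest to Hpgds (0.94), Ms4a14 (0.92) and Ccl12 (0.87), with Ccl7 also among its nearest 5 (0.86). The genes least like Fdps and Sqle were Neu1 (−0.85 and −0.83) and Nhlrc3 (−0.81 and −0.79), and for Hmgcs1 it was Ctsd (−0.84), a lysosomal protease. Idi1 was closest to Actg1 (0.86), the cytoplasmic actin.

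Over all cells, RTT leukocytes carried less of most of these transcripts and more Ch25h. Ch25h had 644 UMIs (32.8 CPM) in the NTT and 4636 UMIs (104 CPM) in the RTT library, a log2 ratio of RTT to NTT of 1.66 (exact binomial 95% interval 1.54 to 1.78). Fdps went from 93.1 to 58.4 CPM (−0.67, −0.76 to −0.58), Insig1 from 36.2 to 23.0 (−0.65), Idi1 from 48.7 to 31.8 (−0.61), Srebf2 from 35.5 to 25.1 (−0.50) and Hmgcs1 from 66.3 to 52.8 (−0.33, −0.43 to −0.23). Sqle was level at 15.1 and 15.3 CPM (0.01, −0.18 to 0.22), and Lss, below the minimum of 500 UMIs, was at 4.38 and 3.13 CPM (−0.48, −0.88 to −0.08). Of the 7 genes above that minimum, 1 was at least 2-fold higher in RTT, where 8.18% of the 8220 genes were, and 0 were 2-fold lower, where 9.6% were. The ratio of Ch25h was 0.81 without the cells that carried C1qa at 1000 CPM or more. It then rested on 18 NTT and 29 RTT UMIs (1.78 and 3.13 CPM), below that minimum, too few to place it against 2-fold.

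The populations that held these UMIs differed between the libraries. In the NTT library, cDC1 and cDC2 held 24.3% and 25.4% of all Fdps UMIs with 2.62% and 9.38% of the cells, and in the RTT library 5.93% and 10.9% with 1.16% and 8.53%. RTT Fdps UMIs lay mostly in macrophages, with 31.9% in TAM_C1q and 23.3% in TAM_cycling. Ch25h UMIs lay in TAM_H2Ab1 (48.6%) and TAM_cycling (31.8%) in the NTT library, and in TAM_C1q (58.2%) and TAM_cycling (31.0%) in the RTT library. In NTT TAM_H2Ab1, 1 cell held 62 of the 313 UMIs, and the level was 107 CPM as a mean over cells against 142 CPM summed.

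**Figure D2:**
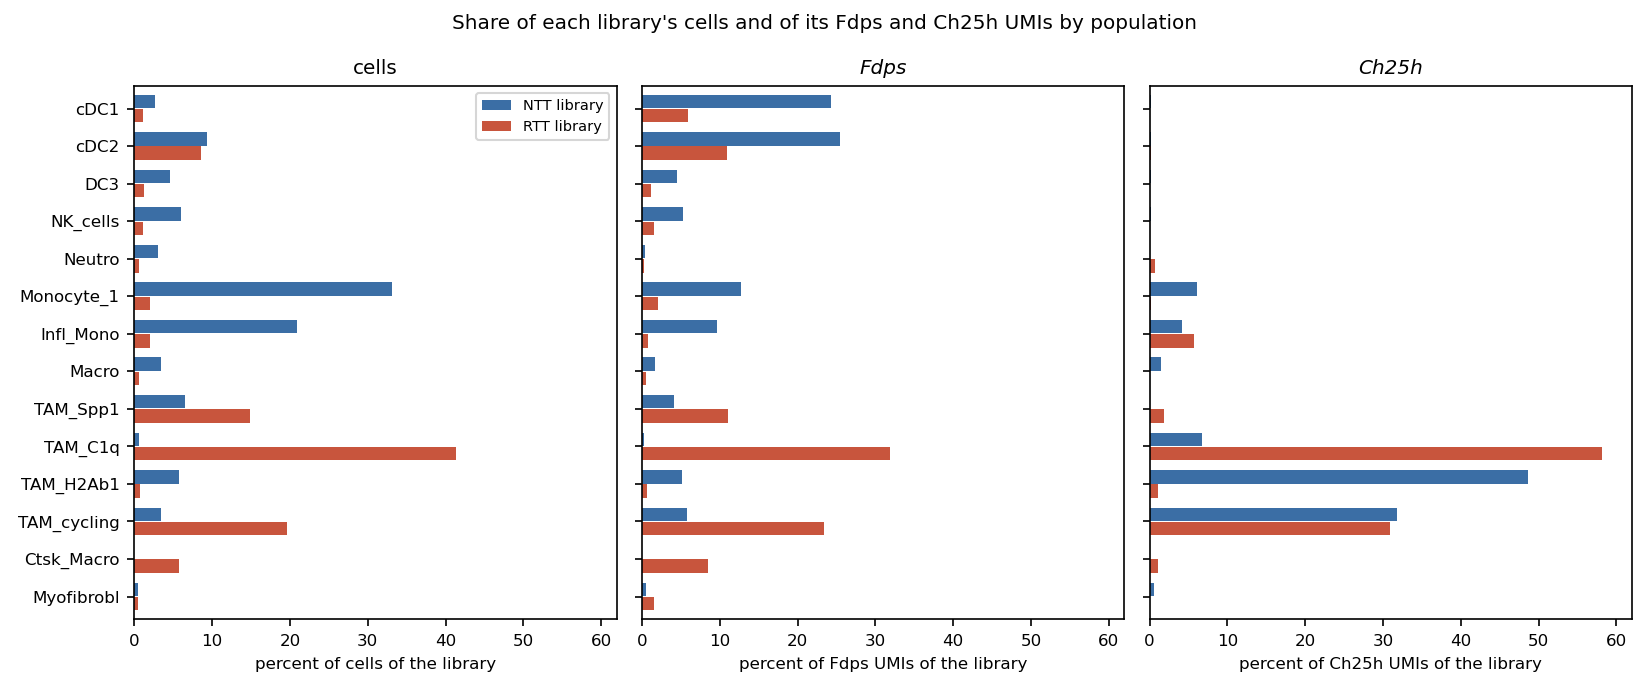
Percent of each library's cells (left), Fdps UMIs (middle) and Ch25h UMIs (right) held by each population, NTT in blue and RTT in red. The cDC1 and cDC2 hold 24.3% and 25.4% of NTT Fdps UMIs, and TAM_C1q holds 58.2% of RTT Ch25h UMIs.

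The difference over all cells was split into a part from the share of UMIs each population held, at the mean level of both libraries, and a part from the level within populations, at the mean share. For Fdps the difference of −34.7 CPM split into −26.0 from shares and −8.67 from levels, and for Hmgcs1 −13.5 CPM into −11.7 and −1.77. Idi1 (−11.6 and −5.33) and Srebf2 (−7.32 and −3.04) leaned the same way. Insig1 was the exception, with 0.74 CPM from shares and −13.9 CPM from levels, and for Sqle −5.72 and 5.87 CPM cancelled. The split of the Ch25h difference of 70.9 CPM depended on the weights, from 127 CPM from shares with NTT levels to −6.13 CPM with RTT levels. The NTT levels include that of TAM_C1q, from 17 cells. With the other library's level where a population had under 20 cells, the parts were 27.4 CPM from shares and 43.5 CPM from levels. Idi1 also moved, with −7.64 CPM of its −16.9 CPM from shares at NTT levels.

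Within populations, conventional dendritic cells carried less of the pathway in the RTT library. In cDC2, Fdps was at 273 CPM in NTT and 111 CPM in RTT (log2 ratio −1.29, −1.51 to −1.07), Hmgcs1 at 162 and 87.6 CPM (−0.89, −1.15 to −0.63), Insig1 at 55.7 and 30.1 CPM (−0.89, −1.34 to −0.44), Idi1 at 119 and 74.7 CPM (−0.67, −0.96 to −0.38) and Srebf2 at 82.1 and 61.8 CPM (−0.41, −0.75 to −0.07). The Sqle interval (−0.77 to 0.07) included no difference. Fdps alone passed 2-fold, 1 of 6 genes with at least 50 UMIs, where 7.49% of genes were 2-fold lower and 7.2% 2-fold higher. It did not with every cell thinned to 2000 UMIs (−0.91) or as a mean over cells (−0.99).

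In cDC1 all 6 genes above 50 UMIs had ratios below 0, and 0 of them reached 2-fold, with 6.85% of genes 2-fold lower and 3.87% 2-fold higher. Fdps went from 680 to 375 CPM (−0.86, −1.13 to −0.59), Idi1 from 197 to 111 CPM (−0.82, −1.34 to −0.33) and Hmgcs1 from 315 to 228 CPM (−0.47, −0.84 to −0.11). The intervals of Sqle, Srebf2 and Insig1 included 0. In DC3, Fdps was at 104 and 106 CPM (0.03), Hmgcs1 at 120 and 141 CPM (0.23), Idi1 at 175 and 134 CPM (−0.38) and Srebf2 at 60.9 and 42.4 CPM (−0.52), with all 4 intervals including 0. Idi1 was at −0.96 there in cells with at least 1500 genes, and Hmgcs1 at 1.24 with every cell thinned to 2000 UMIs.

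Other transcripts moved with these differences. The 10 cell cycle genes of a fixed list summed to 611 CPM in NTT and 1760 CPM in RTT cDC2, and to 1609 and 4384 CPM in cDC1. The 10 interferon genes summed to 5502 and 683 CPM in cDC2 and to 2817 and 208 CPM in cDC1. Without cells that had a UMI of Mki67 or Top2a, proliferation markers, the ratio of Fdps was −1.07 in cDC2 and −0.43 in cDC1, and that of Idi1 in cDC1 was −0.25. Thinned to 2000 UMIs per cell, Fdps in cDC1 was at −0.50. The part of interferon signalling was not tested.

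**Figure D3:**
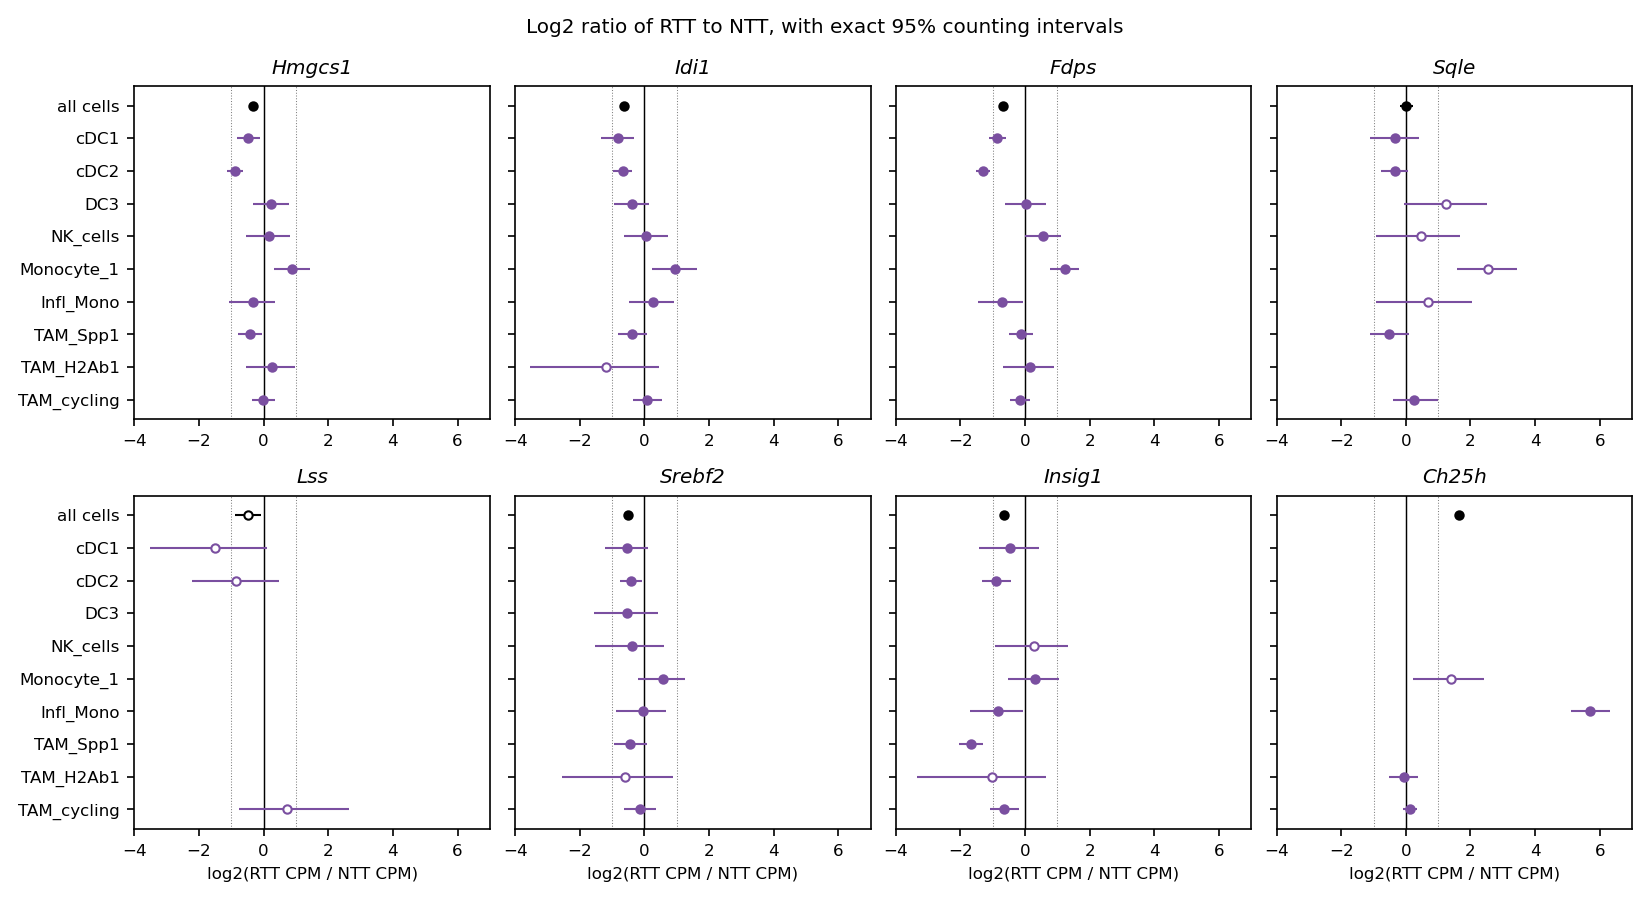
Log2 ratio of RTT to NTT CPM for each gene over all cells (black) and within populations (purple), with exact 95% counting intervals, drawn where the gene had at least 20 UMIs over both libraries; open points fell short of 500 UMIs over all cells or 50 in a population, and dotted lines mark 2-fold. Macro and Neutro are not drawn. Fdps lies at −1.29 in cDC2 and at 1.24 in Monocyte_1, and Ch25h at 5.69 in Infl_Mono.

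Monocyte_1 went the other way. Its Fdps level was 42.8 CPM in 984 NTT cells and 101 CPM in 99 RTT cells (1.24, 0.78 to 1.67), Hmgcs1 34.0 and 62.8 CPM (0.89, 0.30 to 1.43) and Idi1 21.6 and 41.9 CPM (0.95, 0.23 to 1.62). Sqle, under the minimum with 30 and 17 UMIs, was at 5.54 and 32.3 CPM (2.55, 1.60 to 3.45). The intervals of Srebf2 (0.57) and Insig1 (0.31) included 0. Of the 5 genes above 50 UMIs, Fdps was 2-fold higher in RTT, where 3.93% of genes were, and 0 were 2-fold lower, where 13.4% were. Kept to cells with at least 1500 genes, the Fdps ratio was 0.95 and under 2-fold. At 2000 UMIs per cell, 16.2% (13.9 to 18.7) of NTT and 33.7% (24.4 to 43.9) of RTT Monocyte_1 cells had a UMI of any of the 5 enzymes, against 33.1% and 55.6% without thinning. The 10 interferon genes summed to 4266 CPM in NTT and 2702 CPM in RTT Monocyte_1 and the 10 cell cycle genes to 621 and 873 CPM, and their part in the ratios was not tested.

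The wider enzyme list showed how far each shift extended along the pathway. Of 21 synthesis enzymes, 18 passed 500 UMIs over all cells, 0 were 2-fold apart in either direction, beside 8.18% of all genes higher and 9.6% lower, and their median ratio was −0.18 against 0.10 over all genes. The range ran from −0.67 for Fdps to 0.57 for Acat2, the thiolase of the first step. In Monocyte_1, 13 of 15 measured enzymes had a ratio above 0 and the median was 0.89, against −0.11 over all genes, and Fdps, Mvk (1.15) and Nsdhl (1.01) were 2-fold higher, where 3.93% of all genes were. With at least 200 UMIs per gene, the median was 0.68 in Monocyte_1 and −0.66 in cDC2. In cDC2, 14 of 18 lay below 0 with a median of −0.32 against 0.06, and in cDC1 10 of 11 with a median of −0.47 against 0.01, the exception being Ebp (0.92). Counted without the 5 enzymes named above, the other 16 summed to 506 and 750 CPM in Monocyte_1, 1155 and 897 CPM in cDC2, and 1219 and 1007 CPM in cDC1.

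**Figure D4:**
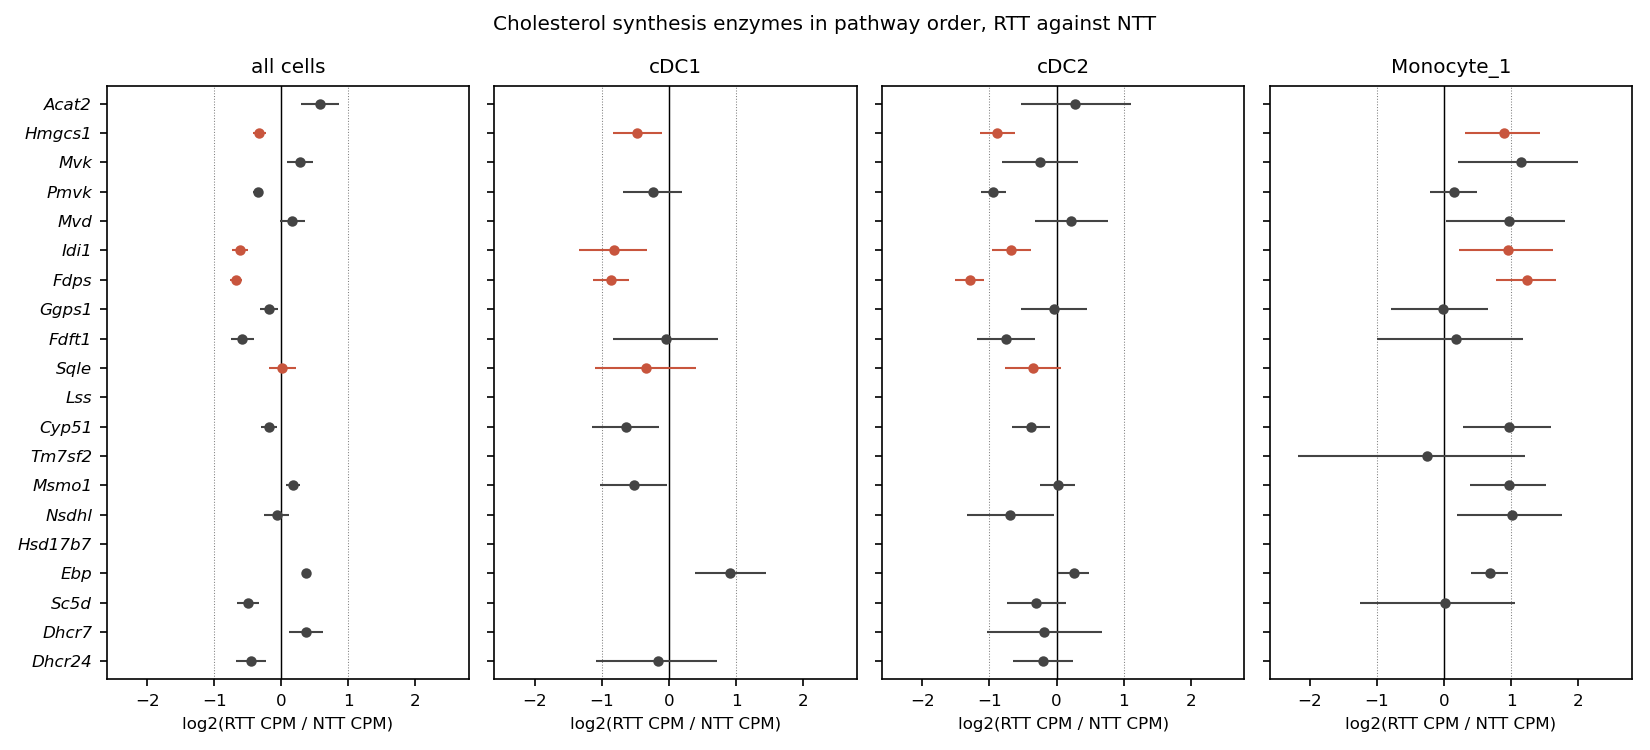
Log2 ratio of RTT to NTT CPM of the cholesterol synthesis enzymes, listed in pathway order, over all cells and in cDC1, cDC2 and Monocyte_1, with exact 95% counting intervals. Hmgcs1, Idi1, Fdps, Sqle and Lss are in red, the others in grey, and a gene below the UMI minimum has no point. Medians over the whole list, of which not every enzyme is drawn, are −0.18 over all cells, −0.47 in cDC1, −0.32 in cDC2 and 0.89 in Monocyte_1.

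In TAM_Spp1, Insig1 was lower in the RTT library by more than any of the 4 named enzymes with at least 50 UMIs. Insig1 was at 103 CPM (106 UMIs) in 193 NTT cells and 32.1 CPM (140 UMIs) in 719 RTT cells (−1.68, −2.06 to −1.30), and at 2000 UMIs per cell a UMI was found in 17.8% (12.7 to 24.0) and 6.12% (4.46 to 8.15) of cells, with unthinned shares of 31.1% and 17.1%. Hmgcs1 was at 77.8 and 57.8 CPM (−0.43, −0.80 to −0.05), Sqle at 32.1 and 22.3 CPM (−0.53, −1.11 to 0.09), Idi1 at 55.4 and 42.9 CPM (−0.37, −0.80 to 0.08) and Fdps at 72.9 and 66.3 CPM (−0.14, −0.51 to 0.25), while Lss had 8 UMIs in each library. The 5 enzymes summed to 246 CPM (217 to 278) and 191 CPM (178 to 205), and all 21 to 867 and 835 CPM. Of the 17 enzymes above 50 UMIs, 12 had ratios below 0, Sc5d was 2-fold lower and Mvk 2-fold higher. Of the 7 genes above 50 UMIs, Insig1 was 2-fold lower and Ch25h 2-fold higher, where 13.6% and 14.8% of genes were. Scd2, a fatty acid desaturase, was at 230 and 60.3 CPM (−1.93), and Abca1, the cholesterol exporter driven by LXR, at 375 and 98.9 CPM (−1.92). C1qa stood at 1176 CPM in NTT and 4641 CPM in RTT TAM_Spp1 and Plac8, a monocyte gene, at 3309 and 265 CPM. Without cells with C1qa at 1000 CPM or more, the Insig1 ratio was −1.43.

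Over all cells, single genes of uptake, efflux and fatty acid synthesis passed 2-fold. The 10 genes for uptake and trafficking had a median ratio of −0.25, with 1 gene 2-fold lower and 0 2-fold higher. Npc1, the lysosomal cholesterol exporter, was the highest at 0.38. Of 8 LXR and efflux genes, Apoe was higher in RTT (1.74) and Abcg1 lower (−1.91, from 165 to 43.8 CPM). Of the 4 fatty acid synthesis genes above 500 UMIs, Scd2 was lower (−1.52) and Fasn the least apart (−0.15), and with a minimum of 100 UMIs or none, 3 were 2-fold lower. Over all genes 8.18% were 2-fold higher and 9.6% 2-fold lower, and lists this short cannot be set apart from that background by a count. The 10 genes of sterol sensing had 0 past 2-fold, from Insig1 at −0.65 to Mbtps2, a protease that releases SREBP2, at 0.43.

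Ch25h in Infl_Mono was the largest ratio among these genes. The population had 27 Ch25h UMIs (8.59 CPM) in 620 NTT cells and 262 UMIs (445 CPM) in 94 RTT cells, a log2 ratio of 5.69 (5.12 to 6.32). A UMI was found in 1.84% (0.92 to 3.27) of 598 NTT cells and 27.2% (18.4 to 37.4) of 92 RTT cells thinned to 2000 UMIs, or in 3.06% and 38.3% of all cells without thinning. NK_cells, which should lack the gene, had it in 0 of 164 thinned cells of the NTT library (a floor of 3 cells is 1.83%). In the RTT library 1 of 41 had it (2.44%, 0.06 to 12.9). Median depths in NK_cells were 5358.5 and 3967 UMIs against 4811 and 5385.5 in Infl_Mono. The RTT share in Infl_Mono lay above that background. For the NTT library the shares were too small to tell apart at this depth, while the NTT level of 8.59 CPM (5.66 to 12.5) lay above the 0.75 CPM (0.02 to 4.20) of NTT NK_cells. Of the 6 genes above 50 UMIs there, Ch25h was 2-fold higher, where 8.08% of genes were, and 0 were 2-fold lower, where 9.96% were.

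Within RTT Infl_Mono, the Ch25h UMIs lay in cells with macrophage transcripts. All 262 lay in the 45 RTT cells with C1qa at 1000 CPM or more (658 CPM, 581 to 743), and 0 in the other 49 (interval 0 to 19.3 CPM). In the NTT library, 145 cells above that C1qa level held 24 UMIs (29.8 CPM, 19.1 to 44.4) and 475 below it held 3 (1.28 CPM). The highest RTT cell had 41 UMIs and the highest NTT cell 3, and the intervals of the C1qa-positive cells, those at 1000 CPM or more, did not overlap between the libraries.

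The C1qa-positive cells of the 2 libraries were unlike in other transcripts too. Plac8, a monocyte marker, was at 5632 CPM in those of NTT and at 0 in those of RTT, Ms4a4c at 4208 and 904 CPM and Ccr2 at 862 and 372 CPM. Of the macrophage list, C1qb was at 7244 and 11966 CPM, C1qc at 3248 and 5833, Apoe at 3941 and 17186, Mrc1 at 231 and 917 and Adgre1 at 112 and 432 CPM, so all 6 genes including C1qa were higher in RTT. Yet the RTT cells held interferon transcripts that RTT TAM_C1q macrophages lacked, with Cxcl10 at 6092 CPM and Ifit3 at 1841 CPM against 58.6 and 9.69 CPM. Between the libraries, the 10 interferon genes summed to 20874 CPM in the C1qa-positive NTT cells and 17475 CPM in those of RTT. Median depth was 8063 UMIs in the RTT and 4984 in the NTT cells, against 3587 in RTT Infl_Mono cells under 1000 CPM of C1qa. The part of cell identity in the Ch25h ratio was not tested beyond this split.

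**Figure D5:**
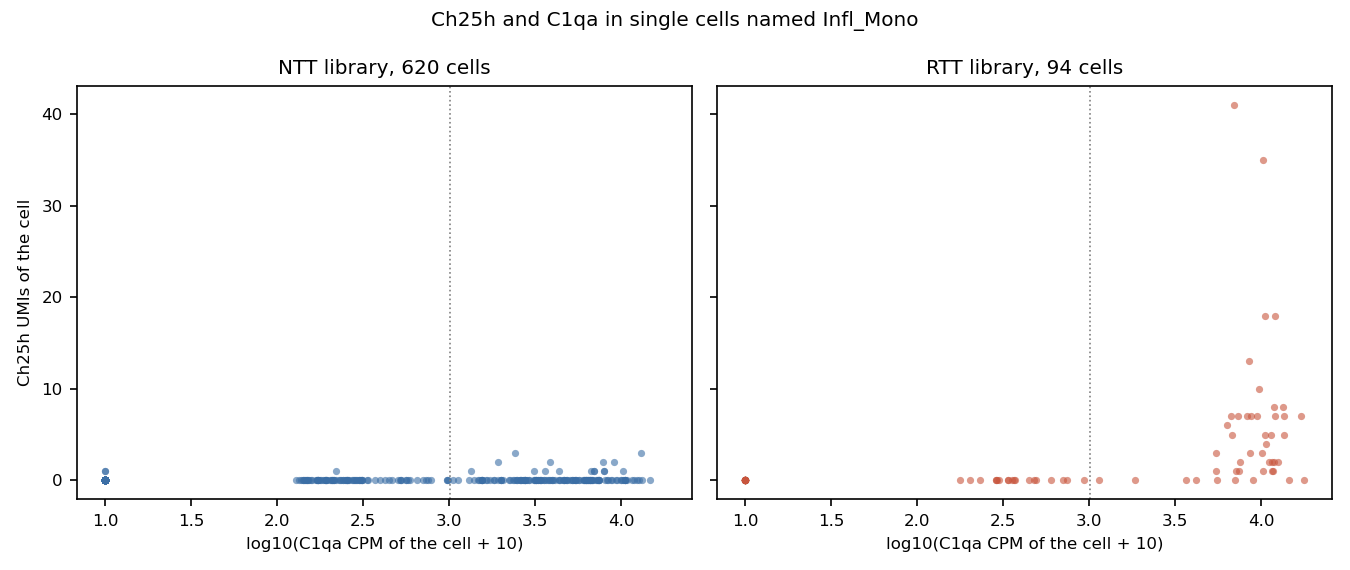
Each point is 1 cell named Infl_Mono, with C1qa as log10(CPM + 10) on the horizontal axis and Ch25h UMIs on the vertical axis, NTT (620 cells) left and RTT (94 cells) right. The dotted line marks 1000 CPM of C1qa, right of which all 262 RTT Ch25h UMIs lie, in 36 of 45 cells.

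The tie between Ch25h and C1qa was seen in both libraries, though not in every population. Cells with C1qa at 1000 CPM or more were 1152 of 2975 in the NTT and 3558 of 4840 in the RTT library. They held 97.2% of NTT and 99.4% of RTT Ch25h UMIs, at 65.8 and 130 CPM against 1.78 and 3.13 CPM in the other cells. In RTT Neutro, 34 UMIs lay in 15 such cells (median depth 10868 UMIs) and 0 in the other 14 (2323.5 UMIs), and NTT Neutro had 0 UMIs in 91 cells. In RTT Ctsk_Macro, the osteoclast-like macrophages, 49 lay in 47 such cells and 2 in the other 233 (64.0 and 0.61 CPM), and in RTT TAM_Spp1 81 in 418 and 5 in 301 (26.9 and 3.71 CPM). RTT TAM_C1q cells under 1000 CPM of C1qa still had 8 UMIs in 11 cells (112 CPM, 48.4 to 221), against 148 CPM above it. In Monocyte_1, cells above and below had overlapping intervals, at 7.93 and 5.83 CPM in NTT and 23.6 and 13.1 CPM in RTT. The last of these values came from 3 UMIs, all in 1 cell of 55.

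C1qa at 1000 CPM or more did not by itself come with a high Ch25h level. That cut does not separate moderate from high C1qa, and a graded relation was not tested. The 585 NTT Monocyte_1 cells above 1000 CPM of C1qa held 28 UMIs (7.93 CPM, 5.27 to 11.5). The 74 such NTT Macro cells held 9 UMIs (17.0 CPM), 6 of them in 1 cell, and the 38 such NTT TAM_Spp1 cells 0. In TAM_Spp1, Ch25h had 0 UMIs in 193 NTT and 86 UMIs in 719 RTT cells, 6.76-fold higher in RTT if NTT takes the floor of 3 UMIs. In TAM_cycling and TAM_H2Ab1, where Ch25h was high in both, the ratios were 0.13 (−0.09 to 0.34) and −0.06 (−0.53 to 0.38). They depended on which cells were kept, since without cells with a UMI of Mki67 or Top2a they were 1.26 and −0.57, and without the 5% deepest cells the ratio in TAM_H2Ab1 was 0.76. There a UMI was found at 2000 UMIs per cell in 18.4% of NTT and 17.8% of RTT TAM_cycling cells and in 13.0% and 14.7% of TAM_H2Ab1 cells, against 19.0% of RTT TAM_C1q. Unthinned, those shares were 46.6%, 48.4%, 36.1%, 33.3% and 45.0%.

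Downstream of CH25H, CYP7B1 and HSD3B7 process 25-hydroxycholesterol-derived oxysterols, and the intermediate 7α,25-dihydroxycholesterol is the ligand of GPR183, a receptor that guides dendritic and lymphoid cells. Cyp7b1 lay mainly in NTT dendritic cells, with 143 UMIs in cDC2 and 40 in DC3 of 190 in the library. In cDC2 it was at 83.8 CPM in NTT and 8.60 CPM in RTT (−3.28, −4.004 to −2.63). Hsd3b7 was at 72.7 and 52.4 CPM in the same cells (−0.47), and over all cells at 56.3 and 62.7 CPM. Of the 7 genes of the oxysterol list, 6 passed 500 UMIs over all cells, Ch25h was the 1 past 2-fold higher and 0 were 2-fold lower, beside 8.18% and 9.6% of all genes. With a minimum of 100 UMIs, 1 was 2-fold lower, Cyp7b1.

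Gpr183 had its largest ratios in the macrophages in which the Ch25h interval included 0. In TAM_cycling it had 12 UMIs (6.32 CPM) in NTT and 1777 UMIs (146 CPM) in RTT (4.53, 3.72 to 5.48), and in TAM_H2Ab1 it was at 5.90 and 133 CPM (4.50, 3.59 to 5.51). In TAM_Spp1 it was at 195 and 138 CPM (−0.50), in cDC2 at 327 and 212 CPM (−0.63), and in DC3, its highest level, at 725 and 452 CPM (−0.68). Over all cells it was nearly level, at 128 and 150 CPM (0.23, 0.16 to 0.30).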

How the data were processed

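The deposited matrix holds raw UMI counts, which the authors made with Cell Ranger 6.1.1 against mm10, per the submitters' processing notes, and a deposited table of another kind (text labels) gives each cell's library and population. The authors kept cells with over 1000 genes and genes shared with other experiments, and named populations on a joint map with another melanoma model. In the data used here, 7680 of the 7815 cells had over 1000 genes. No doublet step is stated in the sources used here. Counts were summed per population and library and scaled to CPM with pandas 2.3.3, numpy 2.4.6 and scipy 1.17.1 under Python 3.11.15, and plotted with matplotlib 3.10.9. With 1 library per group no test was run. The factors of edgeR 4.0.16 and DESeq2 1.42.0 (R 4.3.3) served only as alternative scalings. A library at 0 UMIs took a floor of 3 UMIs. Genes were called 2-fold at a log2 ratio of 1, with at least 500 UMIs over all cells or 50 in a population. Named besides the 8 genes were list genes past 2-fold or at either end of their list, and for each gene the 5 most and 2 least alike by correlation, of which a selection is printed. Gpr183 and Hsd3b7 in single populations, and Acly, were also chosen after their values were seen. Ly6c2 was not analysed here, and some list genes are not reported here. The members, lists and motifs were chosen with earlier results of these data known. No column was left unused (0), and scripts were tested on simulated data.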

Additional observations from a re-analysis of the deposited data

Results flagged for a closer look

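Fdps, the farnesyl diphosphate synthase gene, had ratios of opposite sign in 2 populations. The log2 ratio of RTT to NTT was 1.24 in Monocyte_1 and −1.29 in cDC2, so the single RTT library stood above the NTT library in one population and below it in the other. With 1 library per group the difference between the populations was not tested.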

How the results depend on the processing

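Ratios over all cells kept their sign under every setting except that of Sqle, which ranged from −0.06 to 0.22, and the values that left the counting interval were these. As a mean over cells, the log2 ratios were −0.16 for Hmgcs1, −0.43 for Idi1, −0.39 for Fdps, 0.22 for Sqle and 2.62 for Ch25h, and with cells thinned to 2000 UMIs −0.22 for Hmgcs1, −0.44 for Idi1, −0.40 for Fdps, −0.93 for Lss and 2.58 for Ch25h. Without cells with C1qa at 1000 CPM or more they were −0.16 for Hmgcs1, −0.47 for Idi1, −0.56 for Fdps, −0.96 for Lss, −0.35 for Srebf2 and 0.81 for Ch25h. Fdps was −0.77 in cells with at least 1500 genes. Ch25h was 2.90 without the 5% deepest cells, 1.79 without its highest cell in each library and 1.96 without cells with Mki67 or Top2a, a setting added after the data were seen. Within populations, Fdps in cDC2 was −0.99 as a mean over cells, −0.91 thinned and −1.07 without cycling cells, and Ch25h in Infl_Mono was 5.09 thinned and had no value without C1qa-positive cells, which left 0 RTT UMIs. Fdps in Monocyte_1 ranged from 0.95 to 1.64 and Insig1 in TAM_Spp1 from −1.80 to −1.43. The median of the synthesis enzymes without the 8 genes was −0.13. The part from shares changed sign with RTT levels for Lss (0.54 CPM), Insig1 (−2.35) and Ch25h (−6.13), and for Insig1 also with the other library's level where a population had under 20 cells (−1.85). Apart from the constructions named, the cause of these shifts was not tested. TMM and median-of-ratios scaling shifted all-cell ratios by −0.03 each, and the ratios of Neutro by −0.64 and −0.67. Over all settings, ratios within populations left the counting interval 31 times and stayed inside 387 times. No paired analysis or replicate left out was possible because each group had 1 library.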
